A study of Mus musculus with 10 samples.

Results

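The BMAL and CLOCK family activators are the 4 bHLH-PAS transcription factors that drive the positive arm of the mammalian circadian clock. They were chosen by name as Arntl (also called Bmal1), its paralog Arntl2 (Bmal2), Clock and its paralog Npas2, and make up 4 of the 33076 genes named by the expression table. Each had exactly 1 probe set (a row of the table that summarises the probes of one transcript cluster), and that row named no other gene. Messenger RNA was measured on microarrays in pancreatic islets of 10-week-old male C57BL/6 mice (C57Bl/6J in the methods) kept on 12 h of light and 12 h of darkness, with 5 arrays of islets at ZT20 and 5 arrays at ZT8. ZT (zeitgeber time) counts hours from lights on, so ZT20 lies in the dark phase, when mice are active, and ZT8 in the light phase. The sample titles write CT in place of ZT. Islets were isolated with collagenase, picked by hand and cultured before RNA extraction, for 24 h in the descriptions and methods and overnight in the extraction protocol. No group carried an engineered allele or received a drug. The sample descriptions place time 0 at the same clock hour for both groups, whereas the methods state that the ZT20 mice lived under an inverted light schedule and that all mice were killed at the same hour. Time of day and light schedule can therefore not be told apart. The samples are called biological replicates, and no batch was recorded.

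In the clock, a BMAL protein pairs with CLOCK or NPAS2, and the dimer binds E-box DNA and activates the Per, Cry and Nr1d genes. PER and CRY proteins then inhibit the dimer, while the nuclear receptors NR1D1 and NR1D2 (REV-ERB) repress Arntl transcription and the ROR receptors activate it through the same elements. BMAL1 is the one activator whose loss alone stops behavioural rhythms in mice, since NPAS2 can stand in for CLOCK in the brain clock. In beta cells, BMAL1 and CLOCK are known to be needed for normal insulin secretion.

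Arntl was the only activator of the 4 whose transcript passed the test. Its level was 1.63-fold higher at ZT20 than at ZT8, and the groups did not overlap. Npas2 and Arntl2 had higher means at ZT20 by 1.24-fold and 1.09-fold without passing the test, and Clock had a difference of -0.05 that did not pass either. Over all 32814 gene-naming rows tested, 58 (0.177%) passed in the direction of higher expression at ZT20 and 186 (0.567%) in the direction of lower expression (limma, Benjamini-Hochberg adjusted p under 0.05), together 0.744%. The difference was above 0 for 3 of the 4 activators, against 61.9% of all rows, and below 0 for 1, against 38.1%.

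**Figure D1:**
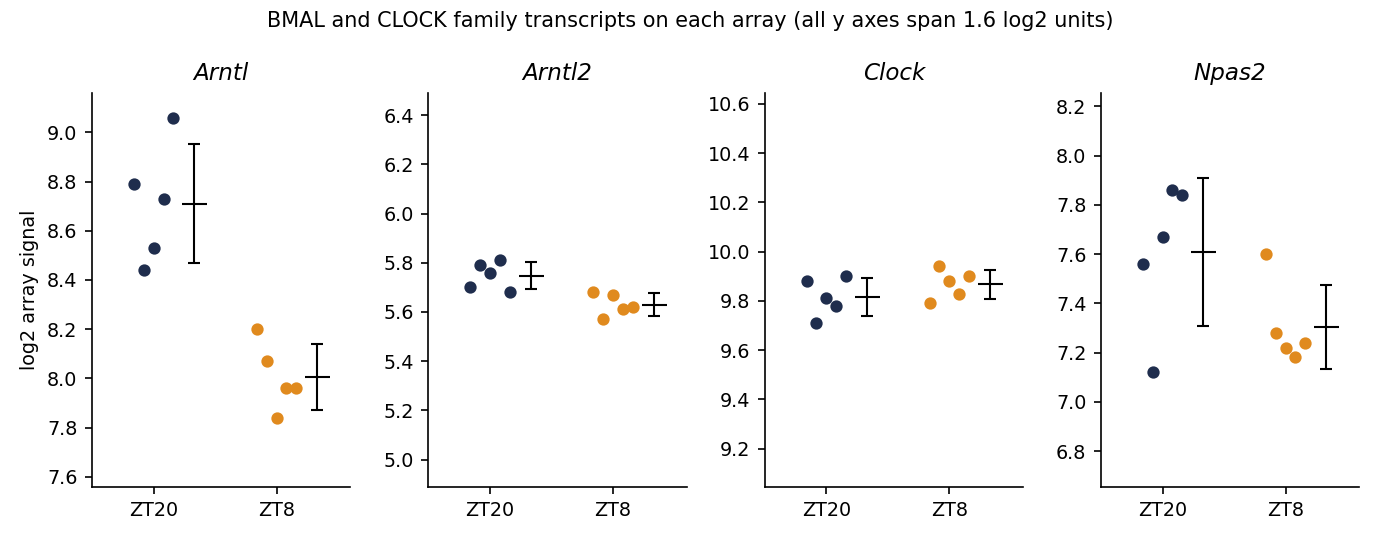
Log2 signal of Arntl, Arntl2, Clock and Npas2 on each of the 5 ZT20 arrays (left in each panel) and the 5 ZT8 arrays (right), with the group mean and SD. The ZT20 points of Arntl all lie above the ZT8 points, whereas those of Clock and Npas2 intermingle.

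Before the values of Arntl, its start region is shown, because the gene is known to be switched by REV-ERB and ROR receptors acting near its start site. RefSeq promoter windows (GRCm38.p6, 250 bases before to 50 bases after a start site) were found for all 4 activators, 7 windows in total. The following 300 bases are the first of 2 Arntl windows, chr7:113207215-113207514 on the plus strand. Capitals mark CCAAT boxes on the opposite strand, which read ATTGG in this direction.
Arntl, first window: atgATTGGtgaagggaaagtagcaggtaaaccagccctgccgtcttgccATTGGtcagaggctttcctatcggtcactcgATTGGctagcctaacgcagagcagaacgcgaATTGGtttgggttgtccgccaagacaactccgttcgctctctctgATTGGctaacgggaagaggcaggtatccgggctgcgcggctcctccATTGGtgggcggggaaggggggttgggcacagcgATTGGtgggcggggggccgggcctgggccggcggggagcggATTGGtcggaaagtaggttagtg
The second window starts 46 bases further on. Its last 30 bases, chr7:113207531-113207560 on the plus strand, hold the one exact match of the activators to the ROR/REV-ERB response element (RORE) consensus. The match, in capitals, lies 27 to 37 bases after the start site of that window. The stretch aaagtaggtta near the end of the first window differs from it in the next-to-last letter and was not counted.
Arntl, end of second window: aggcagAAAGTAGGTCAgggacggaggtgc

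The first Arntl window carried 8 CCAAT boxes, the pentamer recognised by the factor NF-Y. At least 1 CCAAT on either strand was found in 37.4% of the 32851 mouse windows of this length, but only 1 window (0.00304%), that of Arntl, had 8 or more. This motif was searched after the sequence had been read, so its count is a description. The RORE consensus occurred in 0.384% of all windows on either strand, and the half-site AGGTCA that it contains in 16.3%.

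The windows of the other activators looked different. The Arntl2 window (chr6:146805280-146805579, plus strand) had a GC content of 43.3% and 2 CpG dinucleotides, against 60.7% and 21 in the first Arntl window. The median over all windows was 52.7% GC and 7 CpG. The Npas2 window (chr1:39194022-39194321, plus strand) was GC-rich, at 72.7% with 37 CpG. Both are printed to show this contrast, and no letter is in capitals because neither held any of the motifs searched.
Arntl2: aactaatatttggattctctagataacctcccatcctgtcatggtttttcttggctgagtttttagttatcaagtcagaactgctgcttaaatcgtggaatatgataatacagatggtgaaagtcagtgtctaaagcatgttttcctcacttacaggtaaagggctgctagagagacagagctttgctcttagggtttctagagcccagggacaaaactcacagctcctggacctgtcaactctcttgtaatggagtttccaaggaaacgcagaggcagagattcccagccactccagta
Npas2: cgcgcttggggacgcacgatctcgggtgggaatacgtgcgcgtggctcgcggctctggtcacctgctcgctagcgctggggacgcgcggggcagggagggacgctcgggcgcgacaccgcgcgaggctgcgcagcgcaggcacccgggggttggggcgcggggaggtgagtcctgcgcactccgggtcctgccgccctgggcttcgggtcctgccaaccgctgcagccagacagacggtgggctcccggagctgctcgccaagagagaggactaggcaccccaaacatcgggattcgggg

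Clock had 3 windows on the minus strand of chromosome 5. The first and second held 76.3% and 76.7% GC with 42 and 46 CpG and none of the motifs. The third held 47% GC, 1 AGGTCA half-site and 1 CCAAT box. None of the 7 windows contained the canonical E-box CACGTG, which was in 7.15% of all windows, nor the D-box TTATGTAA (0.938%) or the cAMP response element TGACGTCA (1.79%), all searched on both strands. Such a result says only that these letters are not in these windows.

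Arntl (transcript cluster TC0700001660.mm.1, Entrez gene 11865) encodes BMAL1, the partner that CLOCK and NPAS2 share. Its log2 signal was 8.79, 8.44, 8.53, 8.73 and 9.06 on the ZT20 arrays, replicates 1 to 5, against 8.20, 8.07, 7.84, 7.96 and 7.96 on the ZT8 arrays. The lowest ZT20 array, replicate 2, stood above the highest ZT8 array, replicate 1. The means were 8.71 ± 0.24 at ZT20 and 8.01 ± 0.14 at ZT8 (SD, n = 5 each). The log2 difference was 0.70 with an SE of 0.11 (95% confidence interval 0.47 to 0.93, or 1.39-fold to 1.91-fold), and limma's adjusted p was 0.036. An exact two-sided permutation test gave p = 0.0079, the smallest that 5 arrays against 5 allow. Among all tested rows, 832 (2.54%) had every ZT20 array above every ZT8 array.

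The size of the Arntl difference was less dependent on single arrays than its adjusted p. With each array left out in turn, the difference stayed between 0.62 and 0.77. The adjusted p stayed under 0.05 without ZT20 replicate 1 (0.025), ZT20 replicate 3 (0.046) or ZT8 replicate 1 (0.039). It missed the threshold without ZT20 replicate 2 (0.051), replicate 4 (0.098) or replicate 5 (0.058), and without ZT8 replicate 2 (0.089), replicate 3 (0.11), replicate 4 (0.089) or replicate 5 (0.085). It was also missed with the methods' t-test after Benjamini-Hochberg adjustment (0.16) and when the rows that name no gene were tested too (0.061).

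**Figure D2:**
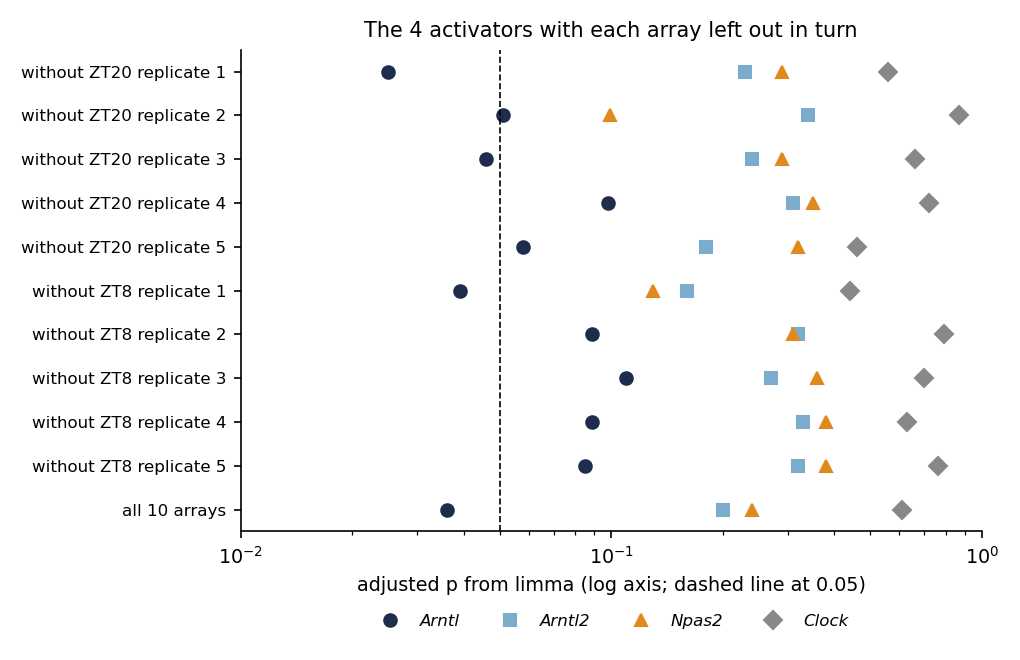
Adjusted p from limma (x axis, log scale) for each activator with all 10 arrays and with each array left out in turn (rows), the dashed line marking 0.05. The Arntl points run from 0.025 to 0.11 on both sides of the line, and those of Arntl2, Npas2 and Clock all lie to its right.

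Arntl was measured well away from the array's background. Of the 23 background control rows, none exceeded the Arntl value on any array, and 81.1% of tested rows had a lower mean. All tested rows were divided by mean signal into 5 bands of equal size, and the rows in the band of Arntl had a median difference of -0.049. The within-group SD of Arntl was 0.20, larger than the median of 0.091 in that band, so its arrays were more spread than is usual at this level.

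Npas2 (TC0100000282.mm.1, Entrez gene 18143) encodes the CLOCK paralog that can also dimerise with BMAL1. Its log2 signal was 7.56, 7.12, 7.67, 7.86 and 7.84 at ZT20, against 7.60, 7.28, 7.22, 7.18 and 7.24 at ZT8. The groups overlapped in both directions. The ZT20 replicates 3, 4 and 5 lay above every ZT8 array, ZT20 replicate 2 lay below all of them, and ZT8 replicate 1 stood apart from its group. The means were 7.61 ± 0.30 at ZT20 and 7.30 ± 0.17 at ZT8 (SD, n = 5 each). The difference of 0.31 (SE 0.13, 95% confidence interval 0.027 to 0.59) did not pass the adjustment over all rows (limma, adjusted p = 0.24), and the exact permutation p was 0.11. The interval ran from 1.02-fold to 1.5-fold.

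No array left out brought Npas2 past the threshold. Without ZT20 replicate 2 the difference was 0.43 with an adjusted p of 0.099, and without ZT8 replicate 1 it was 0.38 with an adjusted p of 0.13. Without ZT20 replicate 4 it was 0.24 (adjusted p = 0.35) and without ZT20 replicate 5 it was 0.25 (0.32). It was 0.18 (0.4) when each array was shifted by the mean of its background control rows. When arrays were weighted by their fit, ZT20 replicate 2 and ZT8 replicate 1 received the lowest weights, 0.432 and 0.52, and the Npas2 difference of 0.42 passed (adjusted p = 0.045). No reason for down-weighting either array was given in the sources used here. The within-group SD of Npas2, 0.24, compared with a median of 0.11 in its band of signal. Between 0 and 2 of the 23 background control rows exceeded it, depending on the array.

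Arntl2 (TC0600001738.mm.1, Entrez gene 272322) encodes BMAL2, a second partner for CLOCK. Its log2 signal was 5.70, 5.79, 5.76, 5.81 and 5.68 at ZT20, against 5.68, 5.57, 5.67, 5.61 and 5.62 at ZT8. The groups just failed to overlap, as did those of 2.54% of all tested rows in this direction. ZT20 replicate 5 and ZT8 replicate 1 were equal at the 2 decimals given. The means were 5.75 ± 0.054 at ZT20 and 5.63 ± 0.046 at ZT8 (SD, n = 5 each). The difference was 0.12 (SE 0.046, 95% confidence interval 0.021 to 0.22, or 1.01-fold to 1.16-fold). The exact permutation p was 0.0079, and limma's adjusted p over all rows was 0.2.

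Arntl2 lay in the range of the background control rows, 7 or 8 of which exceeded it on every array. Those 23 rows themselves averaged 4.27 ± 0.037 at ZT20 and 4.14 ± 0.045 at ZT8 (SD, n = 5 each), a difference of 0.13 (exact permutation p = 0.0079). When each array was shifted by its own background mean, the Arntl2 difference became -0.012. The part of background in the Arntl2 difference was not tested further. The sign of this small difference thus depended on the scaling.

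Clock (TC0500002628.mm.1, Entrez gene 12753) encodes the partner of BMAL1 that has histone acetyltransferase activity. Its log2 signal was 9.88, 9.71, 9.81, 9.78 and 9.90 at ZT20, against 9.79, 9.94, 9.88, 9.83 and 9.90 at ZT8. The arrays of both times intermingled, with 2 ZT20 arrays below the lowest ZT8 array and none above the highest. The means were 9.82 ± 0.078 at ZT20 and 9.87 ± 0.058 at ZT8 (SD, n = 5 each). The difference was -0.05 (SE 0.051, limma adjusted p = 0.61), and the exact permutation p was 0.27. The 95% confidence interval of -0.16 to 0.062 corresponds to 0.894-fold to 1.04-fold, so a change as large as that of Arntl lies outside it as deposited. Clock had a within-group SD of 0.068, below the median of 0.091 for its band of signal, and no background row exceeded it. The difference moved with the scaling. It was 0.023, with the opposite sign, under quantile normalization, -0.098 with median-centred arrays, and -0.18 (95% confidence interval -0.31 to -0.053, adjusted p = 0.054) when arrays were shifted by their background rows.

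**Figure D3:**
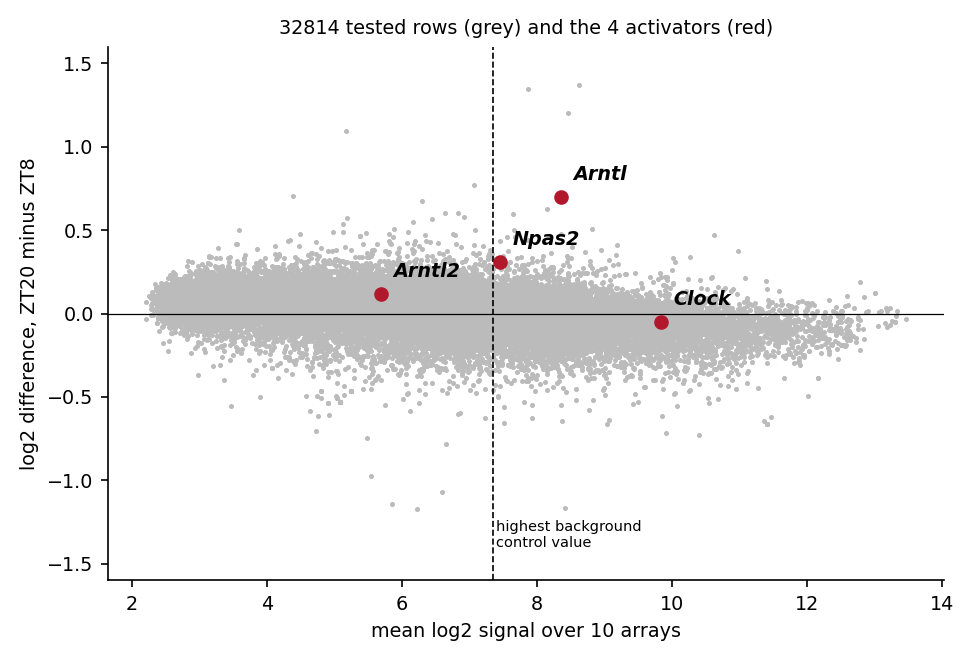
Log2 difference, ZT20 minus ZT8 (y axis), against mean log2 signal over the 10 arrays (x axis) for the 32814 tested rows (grey) and the 4 activators (red), with the highest background control value of any array dashed. Arntl at 0.70 stands above nearly all rows of like signal, Npas2 at 0.31 and Arntl2 at 0.12 lie at the edge of and inside the cloud, and Clock at -0.05 lies in its middle.

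The same arrays recurred at the extremes. ZT20 replicate 2 had the lowest ZT20 value of Arntl, Clock and Npas2. ZT20 replicate 5 had the highest ZT20 value of Arntl and Clock, but the lowest ZT20 value of Arntl2. ZT8 replicate 1 had the highest ZT8 value of Arntl, Arntl2 and Npas2 and the lowest of Clock. Differences between activators were also taken within each array, where a shift shared by all rows of an array cancels. Extremes that go opposite ways within an array, as in ZT8 replicate 1, do not cancel there.

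Log2 ratios were formed for the 6 pairs of activators, and their ZT20 and ZT8 values were compared by an exact two-sided permutation test with adjustment over the 6 pairs. Only the change of a ratio is compared, since different probe sets do not share a scale of level. The change of Arntl was larger than that of each other activator. Arntl by itself already separated the times without overlap, so its 3 ratios largely restate its own difference. Each had an unadjusted exact permutation p of 0.0079, the smallest that 5 arrays against 5 allow. The ratio of Arntl to Clock was -1.09, -1.26, -1.28, -1.05 and -0.84 at ZT20, against -1.59, -1.87, -2.04, -1.87 and -1.93 at ZT8. The groups did not overlap, and Arntl gained 0.75 on Clock (95% confidence interval from limma, as for the other pairs, 0.55 to 0.96, exact permutation adjusted p = 0.016).

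The BMAL paralogs come next, with the limit that Arntl2 lay in the range of the background control rows. The part of background in its side of the ratio was not tested. The ratio of Arntl to Arntl2 was 3.08, 2.65, 2.77, 2.92 and 3.38 at ZT20, against 2.52, 2.50, 2.17, 2.35 and 2.34 at ZT8, a gain of 0.58 (0.32 to 0.84, exact permutation adjusted p = 0.016). The groups did not overlap. The ratio of Arntl to Npas2 was 1.23, 1.32, 0.85, 0.87 and 1.22 at ZT20, against 0.60, 0.78, 0.62, 0.79 and 0.72 at ZT8, a gain of 0.40 (0.19 to 0.60, exact permutation adjusted p = 0.016). Here too no array overlapped, and the ZT20 values spread more widely than those at ZT8. With any single array left out, the changes were 0.69 to 0.82 against Clock, 0.48 to 0.66 against Arntl2 and 0.34 to 0.46 against Npas2. All 3 ratios passed each time, but groups that do not overlap must do so, and this adds no further evidence. The 3 ratios also share the same Arntl readings.

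The CLOCK branch was less clear. The ratio of Clock to Npas2 was 2.32, 2.59, 2.13, 1.92 and 2.06 at ZT20, against 2.19, 2.65, 2.66, 2.65 and 2.65 at ZT8. The other ZT8 arrays were nearly equal, while replicate 1 lay far below them, inside the ZT20 range. The change was -0.36 (-0.63 to -0.087) with an exact permutation adjusted p of 0.067. It passed without ZT8 replicate 1 (-0.45, exact permutation adjusted p = 0.024), without ZT20 replicate 1 (-0.39, 0.048) or without ZT20 replicate 2 (-0.45, 0.048), and also when limma was fitted to the ratios (adjusted p = 0.02). The pairs with Arntl2 have the limit given above, since its 0.12 was no larger than the 0.13 of the background rows. Arntl2 against Clock changed by 0.17 (0.021 to 0.32, exact permutation adjusted p = 0.067), and passed without ZT20 replicate 5 (0.21, 0.048) or ZT8 replicate 1 (0.20, 0.038). Arntl2 against Npas2 changed by -0.19 (-0.47 to 0.099, exact permutation adjusted p = 0.27).

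**Figure D4:**
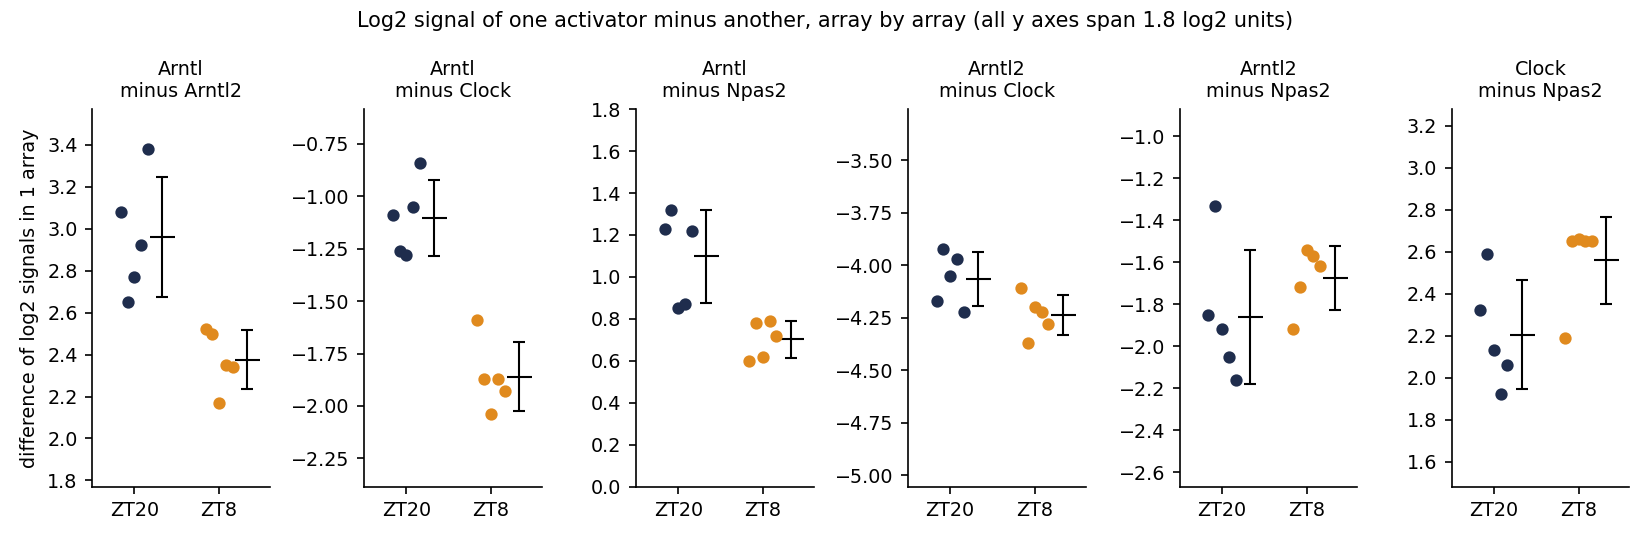
Log2 ratio within each array for the 6 pairs of activators, ZT20 arrays left and ZT8 arrays right in each panel, with group means and SD. The 3 pairs with Arntl separate the times without overlap, and ZT8 replicate 1 sits at 2.19 below the other ZT8 arrays in the panel of Clock and Npas2.

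The genes that the activators drive and those that feed back on them changed in both directions. Of the 16 genes reported here from a list of clock outputs and loops, 1 was called higher at ZT20, 4 were called lower and 11 were not called. Their median difference was -0.17, against 0.032 over all tested rows, with 2 differences above 0 and 14 below. The repressors of Arntl fell. Nr1d1 (REV-ERB alpha) was 7.69, 7.56, 8.14, 7.97 and 7.79 at ZT20, against 8.80, 9.04, 9.08, 9.07 and 9.00 at ZT8, without overlap and 2.25-fold lower (difference -1.17, limma adjusted p = 0.0012). Nr1d2 (REV-ERB beta) fell by 0.66 to a mean of 8.71 at ZT20, against 9.37 at ZT8 (limma adjusted p = 0.045).

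Of the PAR-bZIP factors, which are output genes that bind D-boxes, Dbp fell by 0.55 (7.66 at ZT20 and 8.21 at ZT8, limma adjusted p = 0.041) and Tef fell by 0.42 (7.41 at ZT20 and 7.83 at ZT8, adjusted p = 0.0498). The member of the list called higher was Cry1, a repressor of the BMAL and CLOCK dimer. It was 8.11, 7.85, 7.64, 8.04 and 8.04 at ZT20, against 7.43, 7.27, 7.47, 7.26 and 7.28 at ZT8, a difference of 0.60 (1.33-fold to 1.72-fold, limma adjusted p = 0.035). Its arrays did not overlap. The calls other than Nr1d1 depended on single arrays. Without ZT20 replicate 2, 4 or 5 or ZT8 replicate 2, 3, 4 or 5 only Nr1d1 of the list was still called. Nr1d2, Cry1 and Tef were not called with the replicate number as a block, where Nr1d1 and Dbp were, and Nr1d2 and Tef were not called under quantile normalization. With all transcript rows tested only Nr1d1 was called, and with the methods' t-test after adjustment no gene of the list was. The list was known to vary with time of day in these data when it was chosen, so its count is not independent evidence.

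**Figure D5:**
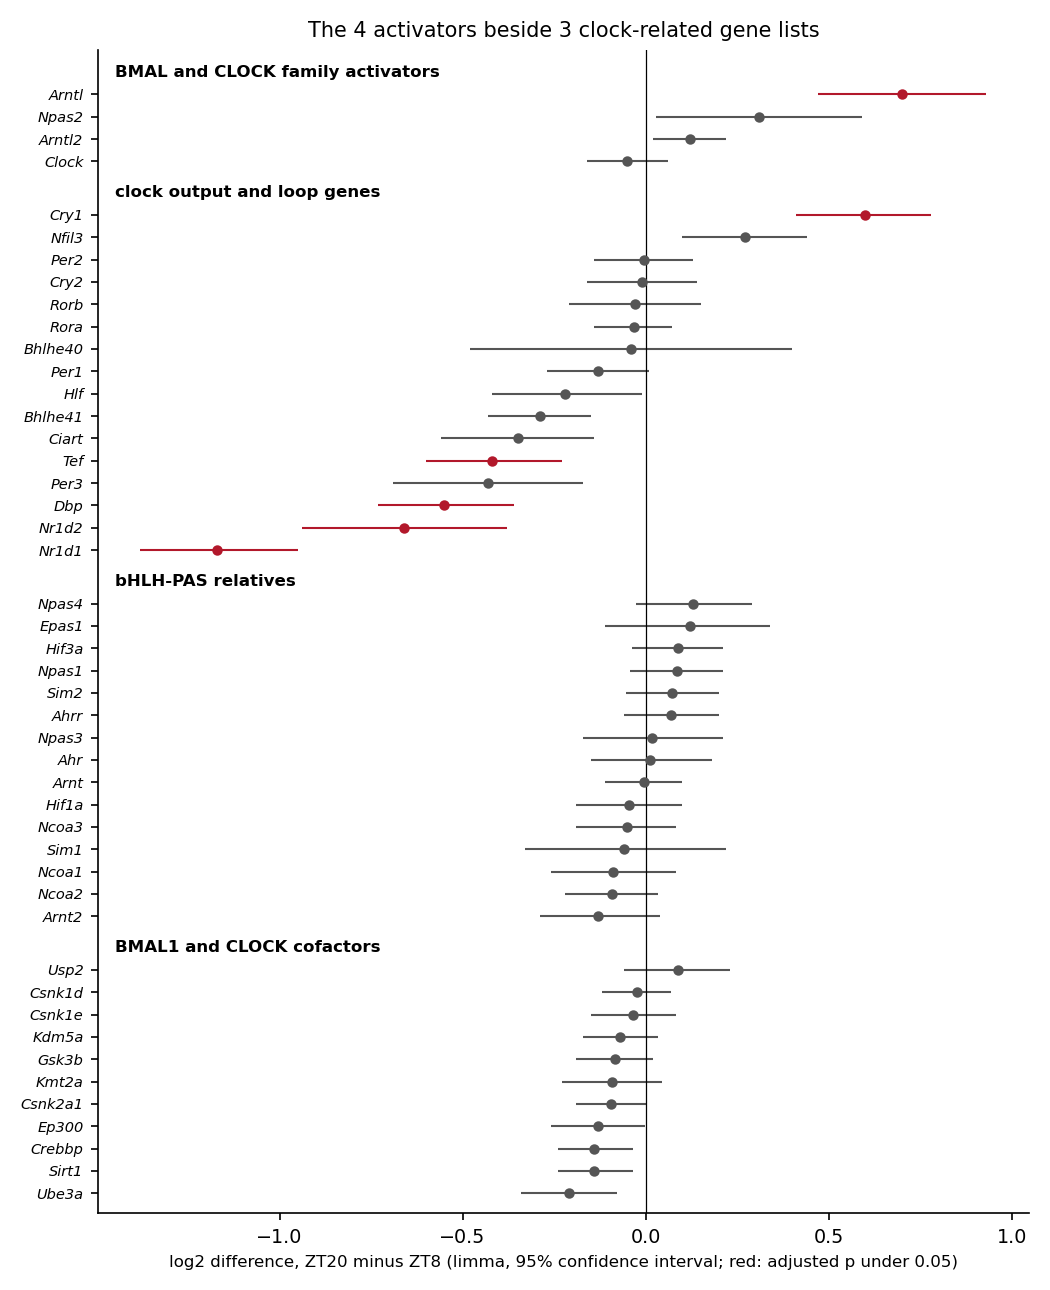
Log2 difference, ZT20 minus ZT8, with its 95% confidence interval from limma for the 4 activators and for 3 lists of related genes, red where the adjusted p was under 0.05. Arntl at 0.70 and Cry1 at 0.60 are the red points right of 0, and Nr1d1, Nr1d2, Dbp and Tef are those left of it.

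Other bHLH-PAS genes, the structural relatives of the activators in hypoxia, xenobiotic and neuronal signalling, showed no called change. All 15 on the list were measured, with differences of -0.13 to 0.13 and a median of 0.013, 8 above and 7 below 0. None had an unadjusted limma p under 0.05, a level reached by 10.2% of all tested rows toward higher and 8.37% toward lower values at ZT20. The lowest p values belonged to Npas4, an activity-regulated factor (difference 0.13, adjusted p = 0.35), and Arnt2, a general dimerisation partner (-0.13, adjusted p = 0.38).

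Cofactors of BMAL1 and CLOCK, among them enzymes that acetylate, deacetylate, phosphorylate or degrade the activators, held no called change. Of 12 listed, 11 were measured (all but Rack1) and none was called by limma. One difference was above 0 and 10 were below, with a median of -0.093 and a range of -0.21 to 0.087. An unadjusted limma p under 0.05 was reached by 4 of the 11, all toward lower values at ZT20, against 8.37% of all tested rows in that direction. The median was -0.026 under quantile normalization and -0.22 with the background shift. Rows in the highest of the 5 bands of signal had a median of -0.049 as deposited, but not all cofactors lay in that band. Ube3a, a ubiquitin ligase, had a difference of -0.21 (adjusted p = 0.11) and Crebbp, a histone acetyltransferase, one of -0.14 (adjusted p = 0.16). Sirt1, the NAD-dependent deacetylase, and Csnk2a1, a kinase subunit, had all ZT20 arrays below all ZT8 arrays, as did 3.39% of tested rows, and were named for this after their values were seen.

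The genes closest to each activator across the 10 arrays were sought among 15455 genes, by the root-mean-square distance of mean-centred log2 values. The nearest to Arntl were Mir7002 (0.146), Cry1 (0.164) and n-R5s5 (0.196), where the spread of Arntl itself was 0.393 and the median distance 0.418. The nearest to its mirror image were Dbp (0.164), Tef (0.198) and Nr1d2 (0.204). The nearest to Npas2 were Rgs4 (0.135), Tacc2 (0.149) and Gbp11 (0.151), against a spread of 0.267. For Arntl2 they were Snai1, Tmem150a and Tepsin (0.0309 to 0.0343), and for Clock Arhgap35, Chd7 and Arid1b (0.0289 to 0.0319), against median distances of 0.133 and 0.12. The spreads of Arntl2 and Clock themselves were small, at 0.0749 and 0.0661, so any row that varies little lies near them. These distances share the arrays and are a description only.

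Reference transcripts and cell markers give the background to these values. Among 7 reference transcripts none was called by limma. The 1 with an unadjusted limma p under 0.05 was Hprt, toward lower values at ZT20, as were 8.37% of all tested rows. The differences were -0.0095 for Rplp0, -0.02 for Actb, -0.029 for Gapdh, -0.044 for Tbp, -0.07 for Ppia, -0.13 for Hprt and 0.14 for B2m. The leading beta cell markers, Ins2 and Iapp, read 13.19 and 13.02 at ZT20, against 13.18 and 13.09 at ZT8. The summed beta cell markers (7 of 8 measured, all but Ins1) ranged from 14.40 to 14.56 at ZT20 and from 14.37 to 14.64 at ZT8 on the log2 scale. Gcg (alpha), Sst (delta) and Ppy (PP cells) had differences of -0.025, 0.10 and 0.016. The delta markers Hhex and Rbp4 had the opposite sign to Sst, at -0.05 and -0.013. Acinar markers (9 of 11, led by Ctrb1 and Cela1) were abundant in both groups, at 14.69 to 15.66 in ZT20 arrays and 14.68 to 15.77 in ZT8 arrays. No marker of beta, alpha, delta, PP, acinar, duct, endothelial, stellate, macrophage, erythroid or Schwann cells was called by limma. Those with an unadjusted limma p under 0.05 were 2 of 5 stellate rows and 3 of 4 erythroid rows. All were higher at ZT20, a direction in which 10.2% of all tested rows reached this level.

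Erythroid markers had the lowest p of the 11 marker lists without passing the adjustment over them. Their summed level (6 of 7 genes measured by 4 distinct rows, since the globin genes share rows) was 9.14 to 11.61 at ZT20 and 8.74 to 9.39 at ZT8, a difference of 1.18 (exact permutation p = 0.04, adjusted p = 0.44). The row of Hba-a1 and Hba-a2 read 8.18, 8.06, 9.72, 10.87 and 9.68 at ZT20, against 8.16, 7.61, 7.52, 8.42 and 7.95 at ZT8, so ZT20 replicates 1 and 2 lay within the ZT8 range. The part of red blood cell content in the activators' differences was not tested. In a tissue of several cell types, fewer cells of a type and less RNA per cell cannot be told apart.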

How the data were processed

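Pancreatic islet RNA was amplified and labelled with the Affymetrix WT Pico chemistry and hybridised to 1-colour Affymetrix arrays, 5 at ZT20 and 5 at ZT8. The values deposited by the authors are log2 signals per transcript cluster, normalized by GCRMA per the study's supplementary heading, and the labels name Affymetrix Expression Console. Neither its version nor a genome build is given in the sources used here. The deposited rows are transcript clusters, a kind of row that the array named in the methods does not use. GCRMA shrinks low signals toward the background and can compress small differences there. Of 72688 rows, 6732 were controls, 33142 named no gene and 32814 named at least 1 gene (1535 of them several). These 32814 were tested as deposited, without a filter on low values. Names came from the platform annotation, and in 756 rows an alias was merged with its RefSeq symbol. Values ran from 1.66 to 13.71, array medians from 6.23 to 6.35 at ZT20 and from 6.17 to 6.27 at ZT8, and arrays correlated at 0.9929 to 0.9982. The number of arrays limits the precision.

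ZT20 was compared with ZT8 by limma 3.58.1 (R 4.3.3) without a replicate block, with Benjamini-Hochberg adjustment over all tested rows, and single values by exact permutation over the 252 splits of the arrays (scipy 1.17.1), so p-values measure the spread between these arrays. Within-array log2 ratios were tested likewise over 6 pairs. Summed marker levels are log2 of summed linear signals. Named are the 4 activators, every called gene of the 3 lists or the 2 of a list with the lowest p, reference transcripts, the 3 genes nearest each activator and to the mirror image of Arntl, and the leading markers. The activators and lists were chosen with earlier results of these data known. The code was tested on simulated data. Alternatives were other scalings, row sets, variance models, a replicate block, the methods' t-test, its 1.3-fold rule and each array left out. Shifting by background rows and limma on the ratios were added after seeing the data.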

Additional observations from a re-analysis of the deposited data

Results flagged for a closer look

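Among 20 groups of 5 arrays (4 activators and 6 ratios, at each time), 2 held an array that stood apart from the rest by Dixon's ratio of gap to range above its 95% critical value. Chance gives about 1 in 20. Npas2 in ZT8 replicate 1 was the highest of its group at 7.60, with a ratio of 0.745. The log2 ratio of Clock to Npas2 in the same array was the lowest of its group at 2.19, with a ratio of 0.983. Both come from 1 Npas2 reading and are not independent.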

How the results depend on the processing

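The Arntl difference was 0.66 with median-centred arrays, 0.74 with quantile normalization, 0.57 with the background shift and 0.78 with array weights, and passed in each. The other row sets and tests leave its 0.70 as it is by construction. It missed the threshold with all transcript rows tested (adjusted p = 0.061) and with the methods' t-test after Benjamini-Hochberg adjustment (0.16). It passed in the others. The study's own rule, an unequal-variance t-test p up to 0.05 and at least 1.3-fold, names no adjustment. That t-test gave an unadjusted p of 0.0011 for Arntl, at 1.63-fold. Leaving out single arrays gave 0.62 to 0.77 for Arntl, 0.10 to 0.14 for Arntl2, -0.072 to -0.023 for Clock and 0.24 to 0.43 for Npas2. The background shift turned Arntl2 to -0.012, quantile normalization turned Clock to 0.023, and array weights brought Npas2 to 0.42 (adjusted p = 0.045). The background shift also gave -0.18 for Clock (adjusted p = 0.054) and 0.18 for Npas2. By construction, this shift lowers every difference by the 0.13 of the background rows. The cause of the changes under the other settings was not tested. The background shift moved the median of all rows to -0.1.

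Counts of rows called moved widely around 58 higher and 186 lower at ZT20. They were 539 lower with median-centred arrays, 15 higher and 37 lower with quantile normalization, 5493 lower with the background shift, 423 lower among rows above the median level, 0 higher and 1 lower with all transcript rows, 109 and 407 with a trended and robust prior, 232 and 598 with array weights, and 0 and 2 with the methods' t-test (63 higher and 170 lower at limma's unadjusted p up to 0.05 and at least 1.3-fold). Without single arrays they were 0 to 69 higher and 1 to 358 lower. The adjusted calls were thus far less stable than the differences.

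With the replicate number as a block, 12 rows were higher and 39 lower, Arntl kept its 0.70 (adjusted p = 0.044), and Clock against Npas2 passed (-0.36, adjusted p = 0.028 from limma fitted to the ratios). The clock list then held 0 higher and 2 lower. After the group mean of each row was taken off, same-numbered arrays correlated at -0.128 to 0.352, and 2 of the 5 were negative. The numbers were therefore not taken to pair the samples, although 3 of 5 arrays matched their own number best.

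The ratios without single arrays were 0.48 to 0.66 (Arntl to Arntl2), 0.69 to 0.82 (Arntl to Clock), 0.34 to 0.46 (Arntl to Npas2), 0.13 to 0.21 (Arntl2 to Clock), -0.32 to -0.11 (Arntl2 to Npas2) and -0.45 to -0.29 (Clock to Npas2). With limma on the ratios, Arntl2 to Clock passed at 0.17 (adjusted p = 0.034) and Clock to Npas2 at -0.36 (0.02). The clock list had 2 lower with quantile normalization, 9 lower with the background shift, and 0 to 1 higher and 1 to 4 lower without single arrays. The other lists gained calls with the background shift, 2 lower bHLH-PAS relatives and 8 lower cofactors. Arntl2 lay below the median level, so that filter gave it no value.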
